A study of Mus musculus with 2 samples.

Results

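The Ly49 receptors are a family of lectin-like surface proteins encoded by the Klra genes of the mouse natural killer gene complex. The 8 members described here were taken as a given list (Klra1, Klra3, Klra4, Klra5, Klra6, Klra7, Klra8 and Klra9) and are 8 of the 31053 genes in the deposited tables and 8 of the 11 Klra genes among them. Immune cells carrying a high level of the pan-leukocyte protein CD45 were sorted from the dissected tumour region of brains of C57BL/6 mice, 20 days after GL261 glioma cells had been placed intracranially. All mice carried the same tumour, and the 2 groups differed in their drinking water: mice of the metformin group drank metformin, a biguanide drug used against type 2 diabetes, and mice of the control group drank plain control water. Each group is 1 single-cell library made with the 10x 3′ v3 kit, and how many mice each library holds, their age and the metformin dose are not given in the sources used here.

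Inhibitory Ly49 receptors carry an immunoreceptor tyrosine-based inhibitory motif in their cytoplasmic tail, bind MHC class I molecules and recruit the phosphatase SHP-1 (Ptpn6). Activating Ly49 receptors lack that motif and instead pair, through a charged residue in the membrane, with the adaptors DAP12 (Tyrobp) and DAP10 (Hcst). Each NK cell transcribes only some of the genes, in a variegated manner, so that a population holds many combinations. Ly49C (Klra3) and Ly49I (Klra9) are the inhibitory receptors best known for binding the class I molecule H-2Kb of the C57BL/6 strain, while Ly49A (Klra1) and Ly49G (Klra7) are best known for binding H-2Dd, which this strain lacks. Ly49D (Klra4) and Ly49H (Klra8) are the activating members, and Ly49H recognises a mouse cytomegalovirus protein. Ly49E (Klra5) is known from fetal NK cells and from some T cells, and Ly49F (Klra6) is a less studied inhibitory member.

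The division into inhibitory and activating members is written in the coding sequence. The first 14 codons of the coding sequence are shown for 2 inhibitory and both activating members, 5′ to 3′ on the coding strand, which is the minus strand of chromosome 6 (GENCODE transcripts of build GRCm38), with codon 8 in capitals, the place of the tyrosine of the inhibitory motif.
Klra7 (Ly49G, inhibitory): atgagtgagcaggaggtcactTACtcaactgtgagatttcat
Klra9 (Ly49I, inhibitory): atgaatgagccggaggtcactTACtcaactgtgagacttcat
Klra4 (Ly49D, activating): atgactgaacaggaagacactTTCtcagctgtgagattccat
Klra8 (Ly49H, activating): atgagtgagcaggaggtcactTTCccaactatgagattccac
Codon 8 encodes tyrosine in all 6 inhibitory members and phenylalanine in both activating members. The next lines show codons 52 to 62 of the same genes, within the stretch that encodes the membrane segment, with codon 57 in capitals, the place of the charged residue used in adaptor pairing.
Klra7 (Ly49G, inhibitory): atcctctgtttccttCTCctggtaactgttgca
Klra9 (Ly49I, inhibitory): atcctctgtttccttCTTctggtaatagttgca
Klra4 (Ly49D, activating): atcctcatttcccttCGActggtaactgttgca
Klra8 (Ly49H, activating): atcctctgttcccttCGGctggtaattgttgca
Codon 57 encodes arginine in Klra4 and Klra8 and leucine in the 6 inhibitory members.

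All 8 genes lie on the minus strand of chromosome 6 in GRCm38. From the lower coordinate upwards the order is Klra5 (chr6:129898996-129917650), Klra6 (chr6:130013033-130026954), Klra4 (chr6:130043731-130067271), Klra8 (chr6:130115226-130129898), Klra9 (chr6:130178675-130193112), Klra7 (chr6:130218605-130233322), Klra3 (chr6:130323289-130337574) and Klra1 (chr6:130363917-130386874). The genes are close copies, and 3′ reads can only be assigned where the ends of the transcripts differ. Of the windows of 90 bases in the last 500 bases of each transcript (411, or 390 for 1 transcript of Klra1), none of Klra1, Klra4, Klra5, Klra6 or Klra8 recurred in another Klra gene. Klra3 shared 32 windows with Klra10 in 1 transcript and 35 with Klra9 and Klra10 in the other. Klra9 shared 58 and 78 windows, with Klra10, Klra3 and the pseudogene Klra11-ps, and Klra7 shared 33 to 42 with the pseudogene Klra13-ps. Values of Klra3, Klra7 and Klra9 are therefore less certain than those of the other members.

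The deposited tables give raw counts of unique molecular identifiers (UMIs), each standing for 1 captured transcript molecule whatever the gene's length. The metformin library held 47142356 UMIs in 5473 barcodes and the control library 49651404 UMIs in 6174 barcodes. The filters left 4569 metformin cells, at a median depth of 7926 UMIs, and 5373 control cells, at 7295 UMIs. They held 10914 UMIs of the 8 members in the metformin library and 8732 in the control library. The libraries shared 8 of the retained barcodes. Cell classes were rebuilt by clustering without any Klra gene and were named from marker genes, so "like" marks a class resting on markers. Levels are given as CPM (counts per 1000000 UMIs), the UMIs of a gene in a class over all UMIs of that class. The NK-like class checked against its markers with 383 CPM of Ncr1 (NKp46), against 6.85 CPM in all other cells, and 298 CPM of Eomes, against 10.9 CPM, while Ncam1 was at 0. With 1 library per group, no test between the groups was possible, and all intervals are 95% intervals for counting error only: exact Poisson for levels, exact conditional for ratios and Clopper-Pearson for shares. A ratio was called by a size rule, which asked for at least 50 CPM and 20 UMIs of the gene in 1 library. The ratio also had to be at least 1.5-fold, with a counting interval that left out 1.

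**Figure D1:**
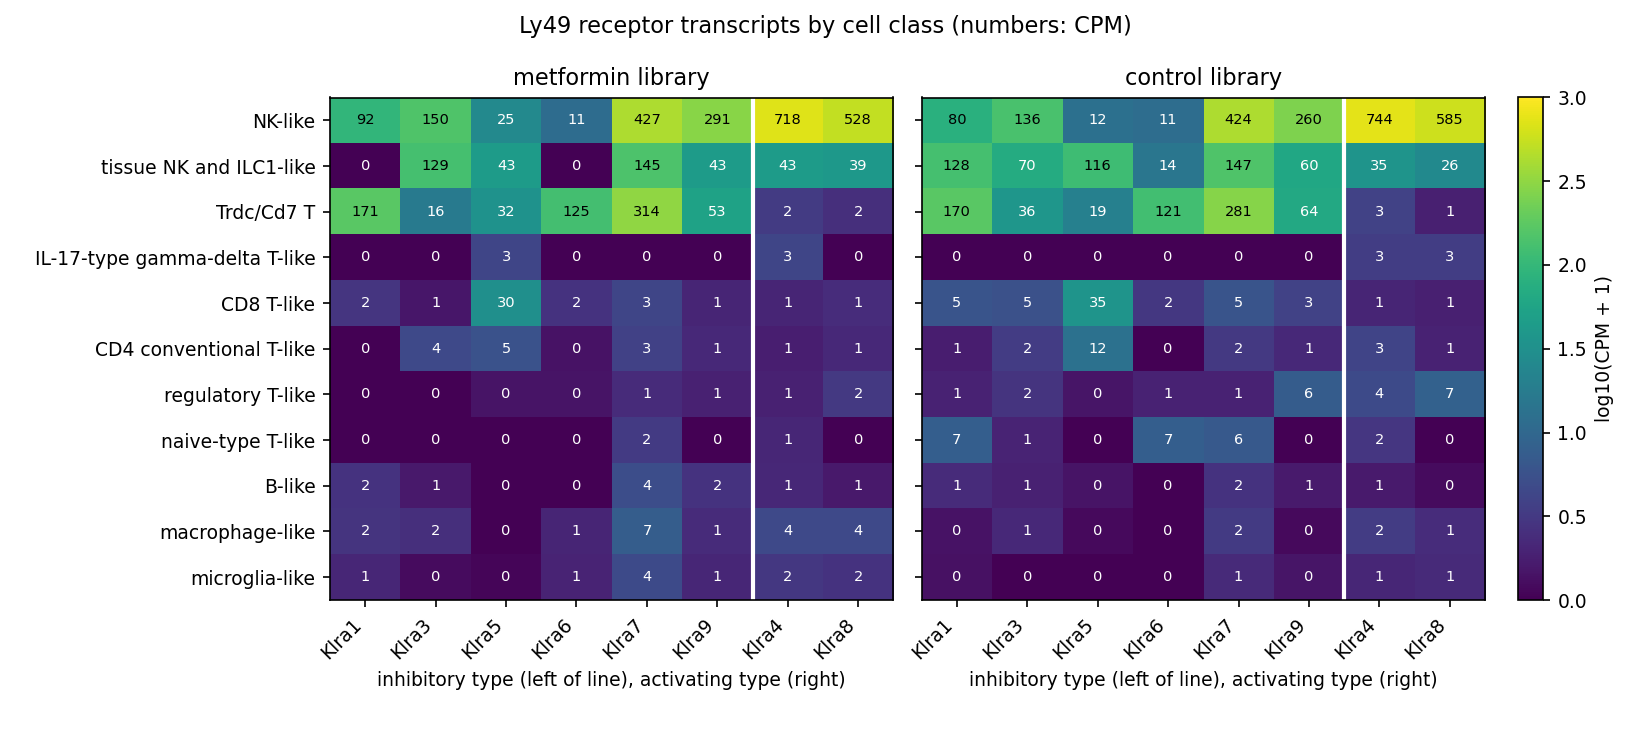
Level of each member (columns; inhibitory type left of the white line, activating type right of it) in 11 cell classes (rows), metformin library on the left and control library on the right. Colour is log10(CPM + 1) and the printed numbers are CPM; the members stand out in NK-like, tissue NK and ILC1-like and Trdc/Cd7 T cells, and only Klra5 passes 30 CPM in CD8 T-like cells.

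Family transcripts were concentrated in a few lymphoid classes. NK-like cells, 543 in the metformin and 383 in the control library, held 75.6% of all member UMIs in the metformin library and 68.5% in the control library. A T cell class of 3 clusters with Trdc and Cd7 transcripts, called Trdc/Cd7 T below although Trdc led only 1 of the clusters, held a further 17.2% and 19%. The members divided these classes among themselves. The activating genes were almost confined to NK-like cells, which held 96.1% of Klra4 UMIs in the metformin and 94.1% in the control library, and 95.5% and 94.5% of Klra8 UMIs. Klra6 lay mainly in Trdc/Cd7 T cells, with 82.6% and 79.9% of its UMIs there. Klra1 was divided, with 53.5% in metformin and 53.3% in control Trdc/Cd7 T cells and 40.6% and 28% in NK-like cells. Klra5 was the only member with its largest share in CD8 T-like cells, at 45.9% of its UMIs in the metformin and 45.3% in the control library.

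In B-like cells, which should lack the family, the summed level was 9.97 CPM in the metformin and 6.01 CPM in the control library. A member UMI was seen in 3.23% of B-like cells of the metformin library and 3.81% of those of the control library, at median depths of 5223 and 5624 UMIs. Microglia-like cells had 11.1 CPM in the metformin and 4.56 CPM in the control library, and regulatory T-like cells 6.12 and 22.8 CPM. These levels were taken as the background, and levels of a few CPM elsewhere were not read as expression.

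NK-like cells carried all 8 members, and their summed level was 2241 CPM in the metformin library and 2253 CPM in the control library, a ratio of 0.995 (interval 0.962 to 1.03). Of the inhibitory members, Klra7 led with 427 CPM in metformin and 424 CPM in control NK-like cells. Klra9 followed with 291 CPM in the metformin and 260 CPM in the control library. Klra3 had 150 CPM in the metformin and 136 CPM in the control library. Neighbours in this order were separated by more than their counting intervals in both libraries. Klra1 had 92.1 CPM on 339 UMIs in metformin and 80.2 CPM on 213 UMIs in control NK-like cells. Klra6 had 10.6 CPM in the metformin and 10.9 CPM in the control library, and was the lowest of the 8 in both, within counting error of Klra5 in the control library. Of the activating members, Klra4 had 718 CPM in the metformin and 744 CPM in the control library, and Klra8 had 528 and 585 CPM. The activating genes thus gave more than the 6 inhibitory genes together, 1246 against 996 CPM in the metformin library and 1330 against 923 CPM in the control library.

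**Figure D2:**
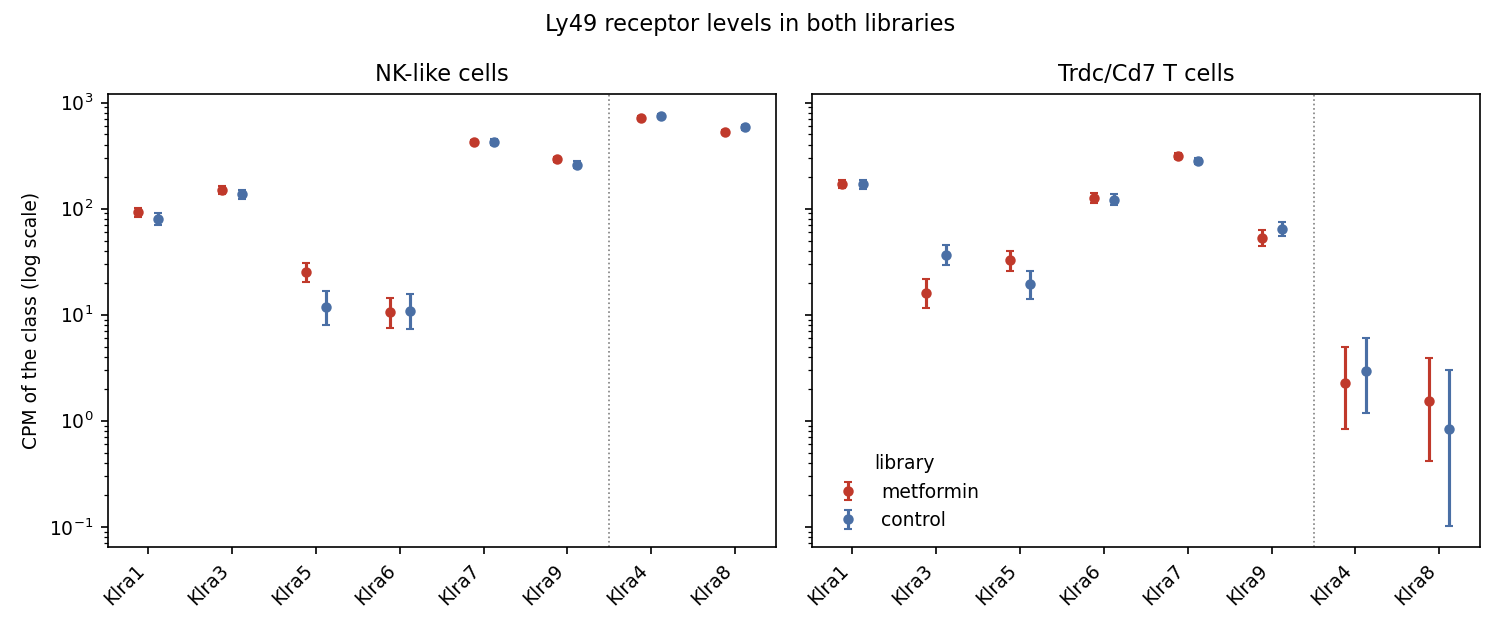
Level of each member in NK-like cells (left) and Trdc/Cd7 T cells (right), in CPM on a log axis, metformin in red and control in blue, inhibitory members left of the dotted line. Bars are exact 95% Poisson intervals for counting error in 1 library per group; both libraries keep the same order of the leading members, and Klra4 and Klra8 lie at 3 CPM or less in Trdc/Cd7 T cells.

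Between the libraries the NK-like levels were close. Of the 6 members with enough UMIs for a call, 0 were called, against 0.61% of all 2789 genes eligible in this class. The median log2 ratio of metformin over control was 0.0768 over these members and -0.0144 over all eligible genes. Klra9 had a ratio of 1.12 (interval 1.02 to 1.23) and Klra8 a ratio of 0.902 (interval 0.843 to 0.964), both short of the size rule. Klra3 had 1.11 (0.966 to 1.27), Klra1 1.15 (0.964 to 1.37), Klra7 1.01 (0.931 to 1.09) and Klra4 0.965 (0.91 to 1.02). Summed by type, the inhibitory genes had a ratio of 1.08 (1.02 to 1.14) and the activating genes 0.937 (0.897 to 0.979). Klra5 had 92 UMIs in metformin and 31 UMIs in control NK-like cells, but 51 of the 92 came from 1 cell. Without the richest cell of each library its ratio of 2.14 became 1.19 (0.707 to 2.04), and with NK cells taken by a marker gate it was 0.906 (0.526 to 1.57). The 3 NK-like clusters held 49.2%, 30.2% and 20.6% of these cells in the metformin library and 50.4%, 36% and 13.6% in the control library. Their summed levels were 2447, 1841 and 2241 CPM in the metformin library and 2394, 1946 and 2401 CPM in the control library. The summed level of 7 macrophage markers in NK-like cells was 169 CPM in the metformin and 84 CPM in the control library. Its part in these ratios was not tested.

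The genes that serve these receptors were as close between the libraries. Of 12 signalling partners, 9 were eligible and 0 were called. Tyrobp, the adaptor of the activating receptors, had 2154 CPM in metformin and 2162 CPM in control NK-like cells, and Hcst had 664 and 619 CPM. Ptpn6, the phosphatase of the inhibitory receptors, had 118 CPM in the metformin and 139 CPM in the control library, a ratio of 0.85 (0.738 to 0.979). All 6 class I genes were eligible and 0 were called: H2-K1, which encodes the Ly49C and Ly49I ligand H-2Kb, had 3637 CPM in metformin and 3556 CPM in control NK-like cells. Among 18 listed receptors of the same gene complex, 17 were measured, 13 were eligible and 0 were called. Klrk1 (NKG2D) had 1010 CPM in the metformin and 995 CPM in the control library, and Klrd1 (CD94) 903 and 891 CPM. Of 13 transcription factors, 10 were eligible and 0 were called, with the ratio farthest from 1 at Ikzf2 (Helios), which had 53.5 CPM in the metformin and 78.7 CPM in the control library (ratio 0.68, 0.557 to 0.83). Of 14 NK maturation genes, 7 were eligible and 0 were called. Cd27, a receptor of immature NK cells, had 191 CPM in metformin and 142 CPM in control cells (ratio 1.34, 1.18 to 1.53).

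The repertoire was read per cell after each cell had been thinned to 3000 UMIs, which left 501 metformin and 361 control NK-like cells and put aside 42 and 22 shallower ones. At least 1 member was detected in 92.2% of metformin NK-like cells (interval 89.5 to 94.4) and in 88.9% of control NK-like cells (85.2 to 92). Without thinning these shares were 94.7% and 91.9%. In thinned B-like cells the share was 1.64% in the metformin and 2.06% in the control library. The mean number of members per NK-like cell was 2.3 ± 1.22 in the metformin and 2.22 ± 1.22 in the control library (SD over cells), with a median of 2 in both. The highest number was 6 members in a metformin cell and 5 in a control cell.

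**Figure D3:**
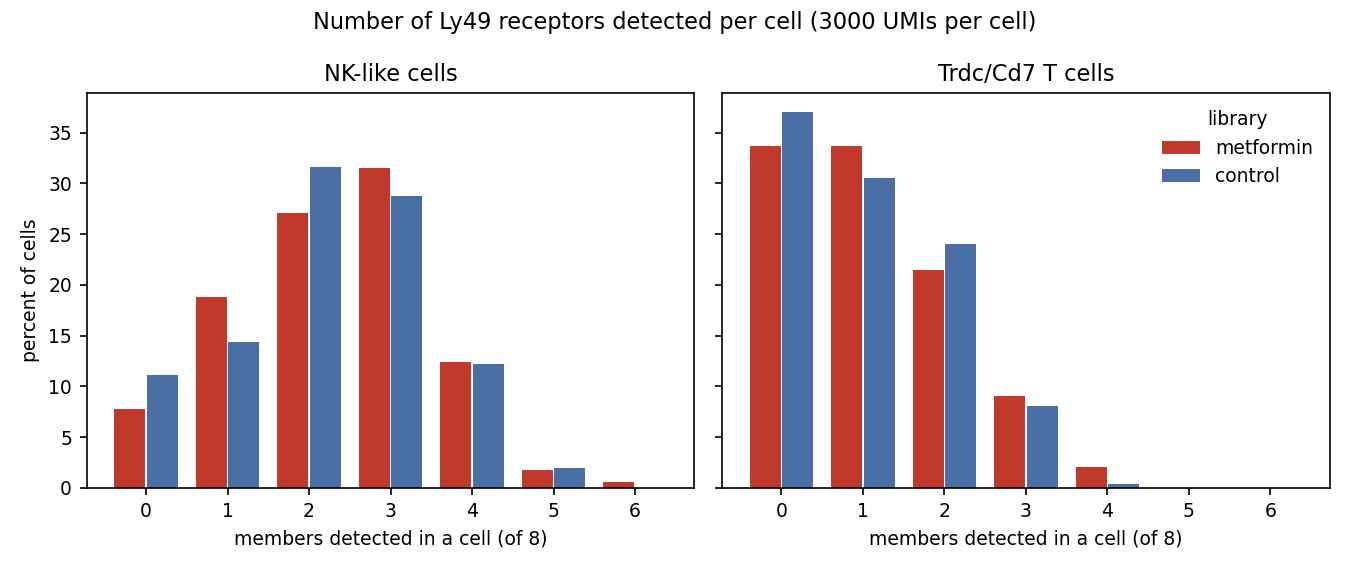
Percent of cells (vertical axis) by the number of the 8 members detected in a cell (horizontal axis) after thinning to 3000 UMIs, in NK-like cells (left) and Trdc/Cd7 T cells (right), metformin red and control blue. In NK-like cells most cells hold 2 or 3 members in both libraries, while in Trdc/Cd7 T cells 0 or 1 is most frequent.

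Single members differed in how they reached their level. Klra8, Klra7 and Klra4 were each seen in about as many thinned NK-like cells: 51.7%, 50.5% and 49.9% in the metformin library and 54.3%, 47.9% and 51.8% in the control library. The UMIs in a positive cell differed more, since before thinning an NK-like cell with Klra4 held a mean of 9.51 Klra4 UMIs in the metformin and 9.54 in the control library. A cell with Klra8 held 6.29 and 6.27 Klra8 UMIs, and a cell with Klra7 held 4.69 and 4.9 Klra7 UMIs. Klra9 was seen in 36.3% of metformin and 34.6% of control NK-like cells, and Klra3 in 23.2% and 20.5%. Klra1 was seen in 14% of metformin and 9.42% of control cells. Klra5 and Klra6 stayed at 2.79% or less in both libraries.

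Most NK-like cells combined the types. An activating and an inhibitory member were seen together in 60.3% of metformin and 60.4% of control NK-like cells. Inhibitory members alone were seen in 21% of metformin and 16.6% of control cells, and activating members alone in 11% and 11.9%. No member was seen in 7.78% of metformin cells and 11.1% of control cells. The H-2Kb receptors Klra3 or Klra9 were seen in 51.1% of metformin and 48.5% of control cells. The cells were spread over many combinations, 72 in the metformin library, of which 21 occurred in 1 cell, and 62 in the control library, of which 24 occurred in 1 cell. The most frequent combination in the metformin library, Klra4 with Klra7 and Klra8, was seen in 40 of its 501 cells (7.98%) and in 32 of 361 control cells (8.86%).

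**Figure D4:**
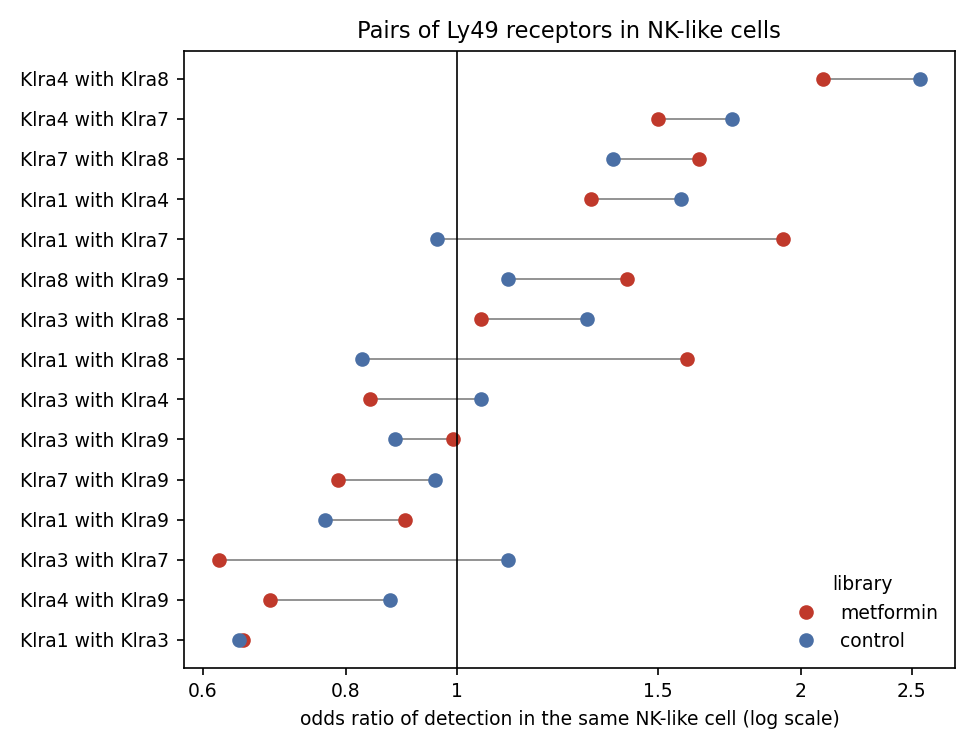
Odds ratio of detecting both members of a pair in the same NK-like cell after thinning (log axis), for the 15 pairs with at least 5 cells expected by product of shares in both libraries, metformin red and control blue. Klra4 with Klra8 lies highest in both libraries. Klra1 with Klra3 lies at 0.65 in both, on 12 metformin and 5 control cells with both members. No intervals are drawn.

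Pairs of members were compared by the odds ratio of their detection in the same cell, as a description with no p, since the cells share a library. Of 28 pairs, 19 in the metformin and 15 in the control library had at least 5 cells expected from the product of their shares. Their median odds ratio was 1.05 in both libraries, with a range of 0.62 to 2.09 in the metformin and 0.645 to 2.54 in the control library. The activating genes went together most: Klra8 was seen in 60.8% of metformin NK-like cells with Klra4 and in 42.6% of those without it (odds ratio 2.09). In control cells the shares were 65.2% and 42.5% (odds ratio 2.54). Klra7 also went with both activating genes, with odds ratios of 1.5 in metformin and 1.74 in control cells for Klra4, and 1.63 and 1.37 for Klra8. Below 1 lay Klra1 with Klra3, at 0.651 in the metformin and 0.645 in the control library, and Klra4 with Klra9, at 0.687 and 0.874. Klra1 with Klra3 rested on few cells, 12 metformin cells with both against 16.2 expected and 5 control cells against 6.97. Intervals were computed only for Klra4 with Klra8 (1.46 to 2.98 in metformin and 1.66 to 3.88 in control cells). Whether other pairs departed from 1 beyond counting error was not tested. Klra3 with Klra9, which both bind H-2Kb and share transcript windows, lay at 0.993 in the metformin and 0.884 in the control library. Of the 15 pairs measured in both libraries, 11 lay on the same side of 1. The others, among them Klra1 with Klra7 (1.93 in metformin and 0.962 in control cells) and Klra3 with Klra7 (0.62 and 1.11), changed sides.

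NK-like cells with few members differed from those with many in other receptors, beyond counting error and in both libraries. The thinned cells were divided by the number of members detected: 39 metformin cells had 0, 94 had 1, 136 had 2 and 232 had 3 or more, and in the control library 40, 52, 114 and 155 did. Klrc1, which encodes NKG2A, the inhibitory partner of CD94, had 476, 276, 202 and 115 CPM across these groups in the metformin library and 419, 294, 136 and 116 CPM in the control library. Its level in cells with 3 or more members over that in cells with 0 was 0.242 (interval 0.193 to 0.303) in metformin and 0.276 (0.213 to 0.357) in control cells. Klrb1b, an inhibitory receptor of the NKR-P1 family, had ratios of 0.236 (0.186 to 0.3) and 0.233 (0.181 to 0.298). Cxcr6, a chemokine receptor of tissue-resident lymphocytes, had 0.047 (0.0114 to 0.146) in metformin and 0.0642 (0.0116 to 0.238) in control cells. Il7r, the IL-7 receptor, had 0.137 (0.0478 to 0.374) and 0.0298 (0.00923 to 0.0752). Both rested on few UMIs. Cells with 0 members held 16 metformin and 12 control UMIs of Cxcr6, and those with 3 or more held 4 and 3. For Il7r these were 11 and 43, and 8 and 5. In the other direction, the receptor gene Klri2 had 76.1 CPM in metformin cells with 0 members and 225 CPM in those with 3 or more, a ratio of 2.95 (1.94 to 4.72), and a ratio of 2.9 (1.95 to 4.47) in control cells. Zeb2, a transcription factor of late NK maturation, had ratios of 2.15 (1.4 to 3.45) in metformin and 1.77 (1.2 to 2.71) in control cells. The mast cell protease gene Cma1 had 2.2 (1.11 to 4.93) and 7.19 (2.38 to 35.5), the latter on 3 UMIs in control cells with 0 members. Other NK maturation genes were mixed. Klrg1 had 3.95 (1.03 to 33.7) in metformin and 4.36 (1.41 to 21.9) in control cells. Ly6c2 changed direction, with 0.417 (0.301 to 0.585) in metformin and 3.44 (1.92 to 6.8) in control cells. Cx3cr1 had 1.13 (0.434 to 3.73) and 1.54 (0.45 to 8.16), and S1pr5 0.847 (0.387 to 2.11) and 7.7 (1.28 to 314). Klrk1 had ratios with intervals across 1, 0.984 (0.871 to 1.11) in metformin and 1.06 (0.927 to 1.22) in control cells. Cxcr6 and Il7r also mark ILC1 and T cells, and the part of such cells in the group with 0 members was not tested.

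**Figure D5:**
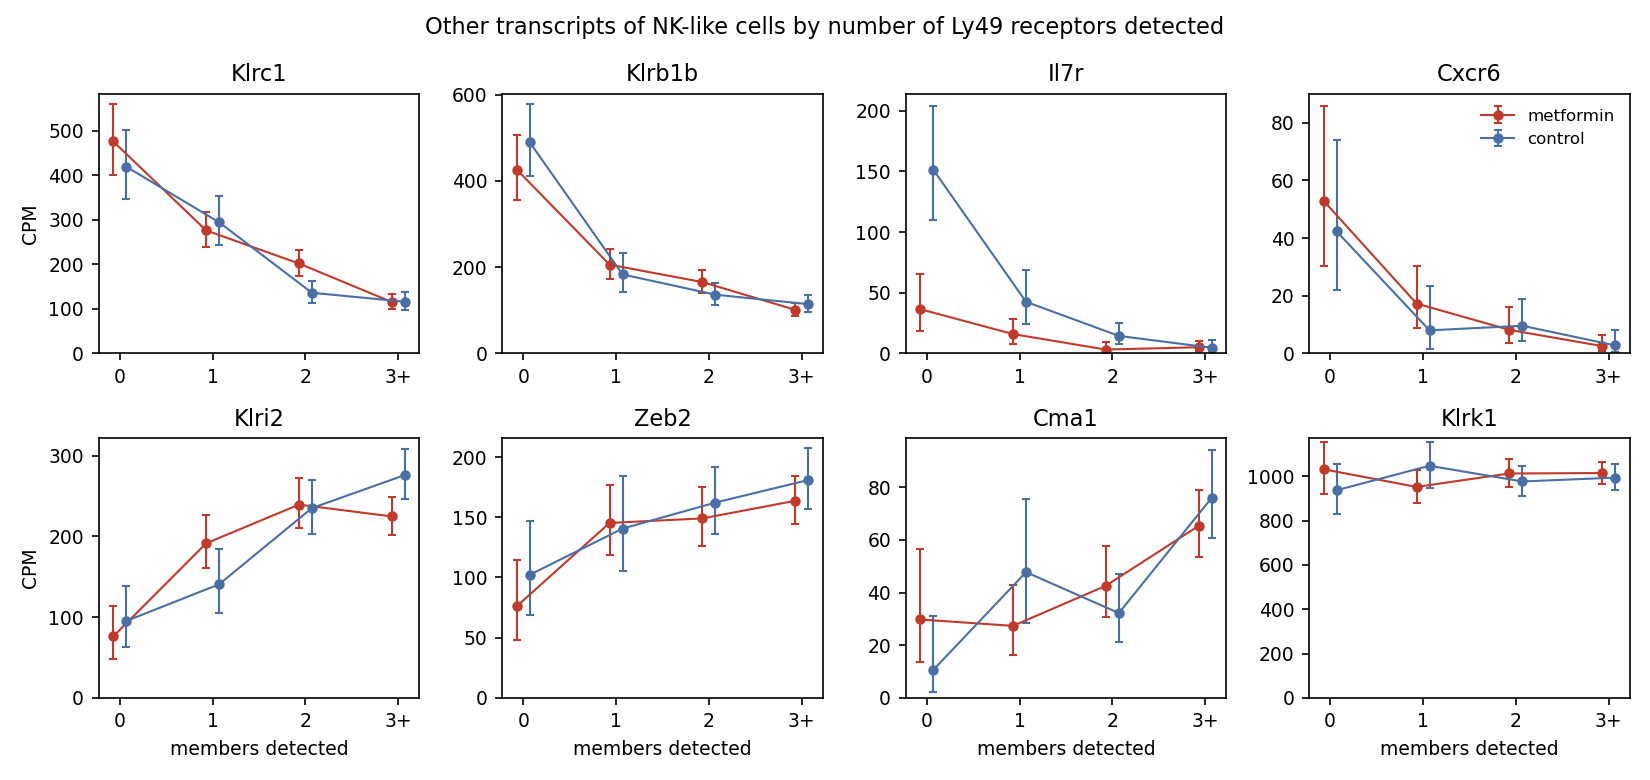
Level in CPM (vertical axes, each starting at 0) of 8 genes outside the family in NK-like cells grouped by the number of members detected (horizontal axes), metformin red and control blue; bars are exact 95% Poisson intervals for counting error. Klrc1, Klrb1b, Il7r and Cxcr6 lie highest in cells with 0 members in both libraries, Klri2 and Zeb2 lie lowest there, and Klrk1 is level.

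Trdc/Cd7 T cells carried a different set. This class, with 300 metformin and 283 control cells in 3 clusters, expressed Cd3e at 315 to 432 CPM and both Trdc (117 to 231 CPM) and Trac (391 to 607 CPM), the constant genes of the delta and alpha chains of the T cell receptor. Its summed member level was 715 CPM on 1872 UMIs in the metformin library and 696 CPM on 1663 UMIs in the control library, a ratio of 1.03 (0.961 to 1.1). The direction depended on the processing, since the ratio was 0.839 (0.759 to 0.928) with a stricter cell filter and 0.936 (0.877 to 0.999) with Klra genes among the genes used for clustering. The members were inhibitory ones. Klra7 had 314 CPM in metformin and 281 CPM in control cells, Klra1 had 171 and 170 CPM, and Klra6 had 125 and 121 CPM. Klra9 had 53.1 CPM in the metformin and 64.5 CPM in the control library. The activating genes were near background, with Klra4 at 2.29 CPM in metformin and 2.93 CPM in control cells and Klra8 at 1.53 and 0.837 CPM. After thinning, a Klra8 UMI was seen in 0 of 297 metformin cells, where 3 counts would be 1.01%, and in 0 of 262 control cells, where 3 counts would be 1.15%. These limits concern cells with a UMI at the thinned depth, not cells expressing the gene, and without thinning 4 of 300 metformin and 2 of 283 control cells held 1 Klra8 UMI each. Their adaptor was present at a lower level than in NK-like cells, with 175 CPM of Tyrobp in metformin and 171 CPM in control Trdc/Cd7 T cells. The summed level of 8 NK markers was 678 CPM in the metformin and 657 CPM in the control library, against 10381 and 10684 CPM in NK-like cells.

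Of the members, 4 were eligible for a call in Trdc/Cd7 T cells and 0 were called, against 1.83% of all 2458 eligible genes. Klra7 had a ratio of 1.12 (1.01 to 1.24), Klra1 1.01 (0.878 to 1.15), Klra6 1.03 and Klra9 0.823. At lower levels, Klra3 had 16 CPM on 42 UMIs in metformin and 36.4 CPM on 87 UMIs in control cells (ratio 0.44, 0.297 to 0.643), and a ratio of 0.133 (0.0467 to 0.309) with a filter of at least 500 genes and at most 5% mitochondrial UMIs. Klra5 had 32.5 CPM on 85 UMIs in metformin and 19.3 CPM on 46 UMIs in control cells (ratio 1.69, 1.16 to 2.47). Of the 3 clusters, the one that held 24.7% of these cells in the metformin and 12.7% in the control library had 33.9 CPM of Klra5 in metformin and 0 UMIs in control cells, and 7.38 and 52.2 CPM of Klra3.

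Fewer members were seen per Trdc/Cd7 T cell. At least 1 was detected in 66.3% of thinned metformin cells (60.6 to 71.7) and 63% of thinned control cells (56.8 to 68.8), or 75% and 76.3% without thinning. The mean number was 1.12 ± 1.04 in the metformin and 1.04 ± 0.984 in the control library (SD over cells). Klra7 was seen in 43.4% of metformin and 35.1% of control cells, Klra1 in 24.6% and 22.5%, and Klra6 in 22.9% and 24.4%. Klra7 went with both other leading members. Klra7 was seen in 65.8% of metformin cells with Klra1 and in 36.2% of those without it (odds ratio 3.39), and in 55.9% and 29.1% of control cells (odds ratio 3.1). In NK-like cells the same pair had the odds ratios of 1.93 and 0.962 given above, and the difference between the classes was not tested. Klra7 was likewise seen in 72.1% of metformin cells with Klra6 and in 34.9% of those without it (odds ratio 4.8), and in 56.2% and 28.3% of control cells (odds ratio 3.26). For Klra1 with Klra6 the libraries differed, with odds ratios of 2.62 in metformin and 0.952 in control cells. Of the pairs with at least 5 cells expected, 6 of 7 lay above 1 in the metformin and 4 of 9 in the control library. Their median odds ratios were 2.12 and 0.984. The class mixes cells that differ in T cell receptor transcripts and member level, and the part of this in the odds ratios was not tested.

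The class was divided by its receptor transcripts. Cells with at least 2 Trac UMIs and no Trdc UMI, 171 in the metformin and 191 in the control library, had a summed member level of 792 and 726 CPM. Cells with at least 2 Trdc UMIs and no Trac UMI, 48 in the metformin and 34 in the control library, had 396 and 536 CPM. The cells with Trac and no Trdc UMI held 11.9% of all member UMIs of the metformin library, against 17.2% in the whole class. In the control library they held 14.5% against 19%. Most member UMIs of the class thus came from cells without a Trdc UMI. Klra6 gave 20.6% of member UMIs in these cells and 6.67% in cells with Trdc and no Trac in metformin, and 18.7% and 12.1% in control.

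A gate on raw counts was used for γδ T cells: 2 or more UMIs of Trdc together with 1 or more of the CD3 genes Cd3d, Cd3e and Cd3g. It kept 120 metformin and 101 control cells. Their summed member level was 732 CPM in the metformin and 638 CPM in the control library, a ratio of 1.15 (1.02 to 1.29). After thinning, a member was seen in 38.1% of metformin and 33.3% of control gated cells. The gated cells came mainly from 3 unlike classes. In the IL-17-type γδ cluster, 31 metformin and 34 control gated cells held 2 and 0 member UMIs. In Trdc/Cd7 T cells, 65 metformin and 45 control gated cells had 467 and 451 CPM, with 1 and 0 UMIs of Klra4 and no UMI of Klra8 in either library. In the NK-like class, 20 metformin and 14 control gated cells had 2072 and 1785 CPM, and held 167 of the 169 Klra4 UMIs of all gated metformin cells and 134 of the 144 of gated control cells. Of the UMIs of both activating genes, gated cells of the NK-like class held 255 of 257 in the metformin and 182 of 204 in the control library. They held 4.29% of all metformin member UMIs, against 6.55% in all gated cells, and 3.1% against 5.58% in the control library. The NK-like clusters carried Trdc at 61.3 to 82.4 CPM, with Cd3e at 9.15 to 13.1 CPM. Their gated cells were deeper than the class, at medians of 10278 against 6310 UMIs in metformin and 9236 against 6360 in control. Whether these are γδ T cells or NK cells with Trdc transcripts was not tested.

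Among all gated cells, those of the NK-like class included, 6 members were eligible. Klra5 and Klra9 were called higher in the metformin library, against 6.12% of all 2828 eligible genes called in either direction. Klra5 had 82 CPM in metformin and 28.8 CPM in control gated cells (ratio 2.84, 1.75 to 4.79), but 51 of its 80 metformin UMIs (63.8%) came from 1 cell of the NK-like class. Without the richest cell of each library the ratio was 1.78 (0.895 to 3.72), and the call was lost. Klra9 had 100 CPM on 98 UMIs in metformin and 56.4 CPM on 43 UMIs in control gated cells (ratio 1.78, 1.23 to 2.61). Gated cells of the NK-like class gave 67 of these UMIs in the metformin and 8 in the control library, whereas those of the Trdc/Cd7 T class had 59.1 and 51.9 CPM of Klra9. With a stricter cell filter the Klra9 ratio was 1.06 (0.692 to 1.64). The summed level of 8 NK markers in gated cells was 2185 CPM in the metformin and 1747 CPM in the control library, and its part in these ratios was not tested.

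CD8 T-like cells, 553 in the metformin and 544 in the control library, expressed mainly Klra5. It had 30.2 CPM on 175 UMIs in metformin and 34.6 CPM on 167 UMIs in control cells, while the other 7 members were at 5 CPM or less in both libraries. The transcripts lay in few cells: 20 metformin cells (3.62%) and 22 control cells (4.04%) held a Klra5 UMI, at means of 8.75 and 7.59 UMIs per positive cell. In B-like cells 0 of 248 metformin and 2 of 656 control cells did, and in microglia-like cells 1 of 1009 and 0 of 1311. A cluster rich in Gzmd and Gzmg, granzyme genes of highly activated T cells, held 10 of the metformin and 16 of the control positive cells, and had 65.1 CPM of Klra5 in the metformin and 155 CPM in the control library. A cluster with the tissue-residency integrins Itga1 and Itgae had 42.3 CPM in metformin and 8.97 CPM in control cells. These rested on 55 UMIs in 8 metformin cells and 10 UMIs in 4 control cells, with 7 of the 10 in 1 cell. No member was eligible for a call in CD8 T-like cells, where 0.826% of all 2543 eligible genes were called. The summed level was 41.1 CPM in the metformin and 55.9 CPM in the control library, a ratio of 0.735 (0.614 to 0.878). For Klra5 alone the ratio was 0.873 (0.702 to 1.09), and 1.12 as a mean over cells of counts scaled per cell. Much of the summed gap thus came from the other 7 members, and from few cells. Klra1 had 24 UMIs in 5 control cells, 11 of them in 1 cell, and 11 UMIs in 5 metformin cells. Klra3 had 22 UMIs in 7 control cells and 3 UMIs in 3 metformin cells. Klra8 went the other way, with 4 UMIs in control and 8 in metformin cells. The summed level of 8 NK markers in this class was 3859 CPM in the metformin and 5443 CPM in the control library, and its part in the ratio was not tested.

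CD8 T-like cells with at least 2 Klra5 UMIs, 16 in each library, were set beside CD8 T-like cells with none. The split used unthinned counts, so deeper cells reach 2 UMIs more readily. The part of depth and of unmarked doublets in the contrast was not tested. Fcer1g, the Fc receptor gamma chain that is an adaptor in NK cells, had 724 CPM in positive and 36.7 CPM in negative metformin cells, and 1132 and 42.1 CPM in control cells, and was seen in 5 of the 16 positive metformin cells and 11 of the 16 positive control cells. Gzmb (granzyme B) had 5865 CPM in positive and 1624 CPM in negative metformin cells, and 6978 and 1767 CPM in control cells. Cd8a stayed high, at 677 CPM in positive and 851 CPM in negative metformin cells and 1399 and 933 CPM in control cells. Trdc had 0 UMIs in the positive cells of both libraries. Tcf7, a transcription factor of naive and memory T cells, had no UMI in any of the 16 positive cells of either library. Cxcr3 had 71 CPM in positive and 158 CPM in negative metformin cells, and 19.1 and 141 CPM in control cells, and Cd27 had 71 and 152 CPM in metformin and 80 and 168 CPM in control cells. Tyrobp was higher in positive cells, with 576 against 19.3 CPM in the metformin and 126 against 15.6 CPM in the control library, but only 4 of the 16 cells held it in each library. The positive cells were concentrated in the Gzmd and Gzmg cluster, which held 7 of the 16 positive metformin and 14 of the 16 positive control cells. That cluster had a median depth of 14745 UMIs over both libraries, against 7033 to 9053 in the other CD8 T-like clusters. Within that cluster alone, Gzmb had 7405 CPM in positive and 3387 CPM in negative metformin cells (ratio 2.19, 2.07 to 2.31), and 7103 and 4498 CPM in control cells (ratio 1.58, 1.49 to 1.67). Fcer1g had 997 and 43 CPM in metformin cells, held by 2 of the 7 positive cells, and 1189 and 118 CPM in control cells, held by 11 of 14. Those 2 metformin cells held 254 of the 265 Fcer1g UMIs of all 16 positive metformin cells. Likewise, 2 metformin cells of the cluster held 202 of the 211 Tyrobp UMIs. Tcf7 was near 0 in the whole cluster, at 4.7 CPM in negative metformin and 1.41 CPM in negative control cells.

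The tissue NK and ILC1-like class was small, with 28 metformin and 44 control cells, and single cells decided its values. Its summed level was 443 CPM in the metformin and 595 CPM in the control library, and a member was seen in 46.4% and 36.4% of its thinned cells. The activating genes lay far below the NK-like level, with Klra4 at 43.1 CPM in metformin and 34.9 CPM in control cells and Klra8 at 39.2 and 25.6 CPM. By the size rule Klra3 was called higher in the metformin library, and Klra1 and Klra5 lower, against 7.14% of all 2789 eligible genes called. Klra3 had 129 CPM on 33 UMIs in metformin and 69.8 CPM on 30 UMIs in control cells. Klra5 had 43.1 CPM on 11 UMIs in metformin and 116 CPM on 50 UMIs in control cells. Klra1 had 0 UMIs in metformin and 55 UMIs in control cells, all 55 in 4 cells.

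The remaining named T cell classes had low summed levels, at or near background apart from Klra5 in CD4 conventional T-like cells. Proliferating lymphocytes, which expressed Trac (850 CPM) and Cd3e (500 CPM), stood above background in the control library. There 72 cells held 1.75% of member UMIs, against 0.211% in 83 metformin cells. Klra7 gave 40.5% and Klra1 20.3% of these control UMIs, and the cause of the difference was not tested. IL-17-type γδ T-like cells, 46 in the metformin and 58 in the control library, held 2 member UMIs in each. Naive-type T-like cells had a summed level of 3.37 CPM in the metformin and 22.7 CPM in the control library. CD4 conventional T-like cells had 14.7 and 22.8 CPM, with Klra5 at 4.76 CPM on 12 UMIs in metformin and 12.3 CPM on 51 UMIs in control cells. These Klra5 UMIs lay in few cells, 5 metformin cells (2.28%) and 10 control cells (2.36%), at means of 2.4 and 5.1 UMIs. At least 2 UMIs were held by 3 of the metformin and 9 of the control positive cells. Klra5-positive cells were rarer among B-like cells, as given above.

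The genes whose levels followed the family most closely were sought over 26 points, 13 classes in each of 2 libraries, by Pearson's r of log2(CPM + 10) among 5275 genes, as a description with no p, since points share a library and depth. The summed members were followed most closely by Spry2 (0.958), Klrb1c (0.945) and Klrb1a (0.93), then Qrfp, Samd3, Arl4d, Sult2b1, Clnk, Ncr1 and Cited4. The r values of single members use the same class levels as above, so they describe the same groups again and add no separate support. Klra4 and Klra8 were followed most closely by Cma1 (0.988 and 0.986) and Khdc1a (0.98 and 0.973). Klra9 and Klra7 were followed most closely by Klrb1c (0.989 and 0.944), and Klra3 by Klrb1a (0.971). Klra1 was nearest to Trdc (0.913), then to Spry2 (0.893) and Klrb1c (0.882). Klra6 was nearest to Tcrg-C4 (0.885), a constant gene of the T cell receptor gamma chain. The likeness to Trdc and Tcrg-C4 is between class levels, and within Trdc/Cd7 T cells most member UMIs came from cells with Trac and no Trdc UMI. Klra5 was nearest to Cd160 (0.869) and Klrc2 (0.865), which encode receptors of NK and activated CD8 T cells.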

How the data were processed

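The deposited raw UMI count matrices were used, 1 per library, whose header gives software version 3.0.0; Cell Ranger, Seurat and build mm10 stand in the submitters' processing notes, with no versions or roles. Per the labels, each library is 1 group, so n is 1 per group. The authors' tables carry no cell annotation. Barcodes with under 300 genes (151 metformin, 92 control) or over 10% mitochondrial UMIs (856 and 727) were left out, as were 37 (0.803%) and 62 (1.14%) doublets marked by Scrublet. Both libraries were normalised to 10000 per cell and clustered together with scanpy 1.11.5 (2000 variable genes without any Klra gene, 30 components, 15 neighbours, Leiden resolution 1, then 1.5 for T, NK and innate lymphoid cells), which gave 30 and 23 clusters. Clusters were named from markers, and 210 metformin and 177 control cells stayed unnamed. CPM came from the UMI sums of a class in 1 library. Co-detection used cells thinned to 3000 UMIs. Calls were tested on simulated data. Named genes were all 8 members, the 10 genes most like their sum, up to 3 most like each member, and up to 4 per list with the ratio farthest from 1 or the highest NK level; genes named beside the number of members or Klra5, and clusters, were chosen after their values were seen. Members, classes and lists were chosen with earlier results of these data known. Sequences and coordinates came from GENCODE vM21. Levels of Klra13-ps and Klra14-ps were not analysed here. Alternatives were other cell filters, doublets kept, Klra genes among the variable genes, marker gates, leaving out the richest cell, other scaling, thinning and detection.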

Additional observations from a re-analysis of the deposited data

How the results depend on the processing

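No paired analysis was possible because each group is 1 library; for the same reason no replicate could be left out. For the summed member ratios of metformin over control, the ratios of shares of cells with a member, and the Klra4 with Klra8 odds ratio, 68 values under other settings lay within the counting interval of the main value and 4 did not. With classes taken by marker gates on raw UMIs the NK ratio was 1.04 and the CD8 T ratio 0.6. In Trdc/Cd7 T cells the summed ratio was 0.839 with a filter of at least 500 genes and at most 5% mitochondrial UMIs, and 0.936 with Klra genes among the variable genes; alternatives for this class were added after the data had been seen. The cause was not tested. The Klra4 with Klra8 odds ratio ran between 1.81 and 2.64 in the metformin and between 2.23 and 3.77 in the control library. Of the values for single members, shares and the mean number of members, 186 moved by less than the counting interval (for the mean number, the SD over cells) and 36 by more. The SD over cells is wider than the error of a mean, so the mean number says little about stability here. Across settings it ran from 1.56 to 2.66 in metformin and from 1.54 to 2.66 in control NK cells. In gated γδ T cells the called ratios of Klra5 and Klra9 stayed above 1 as values, but neither call held under every setting run. Klra5 had 1.78 (0.895 to 3.72) without the richest cell, and Klra9 had 1.06 (0.692 to 1.64) under the stricter filter. The called ratios of the tissue NK and ILC1-like class were not run under other settings. Under the stricter filter the ratio in gated γδ T cells was 0.447 for Klra1 and 1.9 for Klra8, and in Trdc/Cd7 T cells 0.73 for Klra1 and 0.133 for Klra3. Klra5 in NK-like cells had 0.906 with the marker gate and, in CD8 T-like cells, 1.12 as a mean over cells. Detection depends on depth and threshold: with at least 2 UMIs the share of NK-like cells with a member was 82% in the metformin and 80.9% in the control library, and that of CD8 T-like cells 1.87% and 2.15%. In NK-like cells Klra5 is limited by few positive cells (9 metformin and 7 control) and Klra6 by few UMIs (39 and 29). Every member of the tissue NK and ILC1-like class is limited by the number of cells (28 metformin and 44 control).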

Other observations

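The Klra genes outside the 8 members had their own pattern. Klra2 was a gene of myeloid cells here, with 168 CPM in metformin and 181 CPM in control macrophage-like cells and 178 and 163 CPM in monocyte-like cells, against 0.77 and 1.49 CPM in microglia-like cells. Klra17 had 105 CPM on 51 UMIs in metformin and 76.1 CPM on 22 UMIs in control plasmacytoid dendritic-like cells. Klra10, which shares transcript windows with Klra3 and Klra9, had 3.26 CPM in metformin and 3.01 CPM in control NK-like cells.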
